A study of Homo sapiens with 6 samples.

Results

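The chaperonin genes examined were 10: the 8 subunits of the cytosolic chaperonin CCT (also called TRiC) that the array names, TCP1, CCT2, CCT3, CCT4, CCT5, CCT6A, CCT7 and CCT8, and the mitochondrial chaperonin genes HSPD1 and HSPE1. They are 10 of the 34602 genes on the arrays that are not spike-in controls, and all 10 were among the 13145 genes tested. The genes were chosen from their knockout-minus-control differences in these same arrays, in which the CCT subunits and HSPD1 lay on the opposite side of 0 from HSPE1. Differences between the groups are therefore given for them as a description and support nothing. Where outcomes of the fit across all genes are counted for them, these are no independent test.

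The arrays measured total RNA from 6 cultures of U2OS, a human osteosarcoma cell line, with 1 Illumina bead array per culture. In 3 of them MBTD1, which encodes a reader of methylated histones in the TIP60/NuA4 acetyltransferase complex, had been knocked out with CRISPR/Cas9, each in a different clone. The other 3 were controls, titled "control KO" and labelled as control clones, although the series description compares the knockouts with wild type. Whether they are separate clones is therefore not settled, and "control clone" below is the name on the label. All 6 were untreated and grown in DMEM with 10% fetal bovine serum. Each knockout line is a clone, so a value in it can belong to the clone, and in bulk RNA fewer cells with a transcript and less of it per cell cannot be told apart.

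Chaperonins are double-ringed barrels that enclose an unfolded protein and release it after ATP hydrolysis. CCT has 8 different subunits in each ring and folds actin, tubulin and several WD40-repeat proteins, receiving many of them from prefoldin. In mitochondria HSPD1 (HSP60) forms the barrel and HSPE1 (HSP10) its lid, and imported proteins reach them after the mitochondrial HSP70. In human cells HSPD1 and HSPE1 lie head to head and are known to be transcribed from a shared bidirectional promoter.

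Levels are log2 intensities after background correction and quantile normalization, and each value of a clone is the value of its array. MBTD1 measured 5.06, 5.05 and 5.05 in control clones 1 to 3 and 5.17, 4.99 and 4.62 in knockout clones 1 to 3. The difference was -0.13 (2-sided exact permutation test, p = 0.7, smallest possible 0.1). Knockout clones covered a range of 0.55 among themselves, and controls one of 0.015. The probe position relative to the edit is not known here, and the value checks nothing about the knockout. Between 12982 and 13511 genes per array were above background. Of 9 osteoblast lineage markers 6 were detected on at least 3 arrays, but RUNX2, SP7 and COL1A2 did not meet that detection p. RUNX2 measured 4.62 to 5.26 over the 6 arrays, above IBSP, which met it, at 4.22 to 4.52, while SP7 measured 4.21 to 4.80 and COL1A2 4.16 to 4.33. Of these 6, 0 passed the test described next: SPP1, a bone matrix protein, had a difference of -1.22 (limma adjusted p = 0.0522) and IBSP, another, -0.20. Of the markers of other cell types, 1 of 4 epithelial genes (EPCAM) and 1 of 7 blood and endothelial genes (VWF) were. EPCAM measured 4.93 to 5.25 and 4.61 to 4.99 in control and knockout clones, and VWF 4.31 to 4.58 and 4.36 to 4.80. Nothing in the labels says when the clones were grown or hybridised, so any p-value measures the spread between these 6 arrays.

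Across all tested genes, 207 (1.57%) passed limma's test at an adjusted p under 0.05, 158 higher (1.2%) and 49 lower (0.373%) in knockout clones. The count depends on the processing: it was 0 with the background fitted on all rows, 585 (553 higher and 32 lower) with a common median, 1392 (811 and 581) with array weights, and 0 to 577 on leaving out a single array, so these shares hold only for the values as processed here. Of the 10 chaperonin genes 0 did, and 8 of the 10 had an unadjusted limma p under 0.05 against 20.4% of all tested genes (10.3% lower and 10.1% higher). In 8 of the 10 genes the knockout and control values did not overlap, which was so for 25.9% of tested genes (13.7% with the knockout clones below and 12.2% with them above). Because the genes were chosen from this contrast, nothing is read from these counts.

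HSPD1 and HSPE1 are described first, since they share a promoter region and lay on opposite sides of 0. The RefSeq windows of their start sites (GRCh38.p14, 250 bases before to 50 after the start) are printed here to show how close they are. HSPE1 is on the plus strand at chr2:197500129-197500428. HSPD1 is on the minus strand, with the window of its gene start at chr2:197500225-197500524 and that of another annotated start at chr2:197499791-197500090. Capitals mark motifs found on either strand. They are the E-box, spelled CACGTG, and the CCAAT box, spelled as its name. The ETS motif was searched as CCGGAAG. The SP1 GC box was searched as GGGCGG, and units of heat shock elements as GAANNTTC or as TTCNNGAA. The last pair of letterings can overlap each other.
HSPE1: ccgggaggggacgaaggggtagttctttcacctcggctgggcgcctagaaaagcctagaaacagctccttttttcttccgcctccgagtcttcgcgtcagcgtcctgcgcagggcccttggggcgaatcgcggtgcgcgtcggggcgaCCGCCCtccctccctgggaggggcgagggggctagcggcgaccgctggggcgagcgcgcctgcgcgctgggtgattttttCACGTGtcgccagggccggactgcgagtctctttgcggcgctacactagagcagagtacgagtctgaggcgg
HSPD1: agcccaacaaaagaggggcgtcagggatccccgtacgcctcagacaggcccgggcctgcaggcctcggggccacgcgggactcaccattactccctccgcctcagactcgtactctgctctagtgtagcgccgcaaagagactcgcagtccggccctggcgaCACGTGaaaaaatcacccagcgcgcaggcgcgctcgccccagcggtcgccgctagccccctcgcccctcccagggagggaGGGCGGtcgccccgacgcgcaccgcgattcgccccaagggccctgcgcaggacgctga
HSPD1, other start: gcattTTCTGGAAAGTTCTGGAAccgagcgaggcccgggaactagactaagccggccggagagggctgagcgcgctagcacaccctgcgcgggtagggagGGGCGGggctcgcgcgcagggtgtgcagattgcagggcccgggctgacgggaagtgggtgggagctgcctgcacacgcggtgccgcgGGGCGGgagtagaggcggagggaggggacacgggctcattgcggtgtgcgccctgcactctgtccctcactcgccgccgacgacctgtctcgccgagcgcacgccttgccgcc

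The start sites of HSPE1 and of the HSPD1 gene lie 105 bases apart and point away from each other, and their windows share 204 bases. A single E-box, 22 bases before the HSPE1 start and 88 bases before the HSPD1 gene start, is therefore in both. E-box letters stand in 7.26% of all 35116 human windows in the table. The window of the other HSPD1 start holds an 18-base run of 4 alternating TTC and GAA units spaced by 2 bases, the lettering that heat shock factors are known to bind. The nearer end of this run lies 294 bases before the HSPE1 start, beyond the HSPE1 window. Such a run, beginning with either unit, stands in 12 of the 35116 windows, and a run beginning with TTC, as here, in 9. Both counts were made after the match had been seen. These matches describe letters, not bound sites.

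HSPD1, the mitochondrial barrel, measured 9.69, 9.97 and 9.60 in control clones 1 to 3 and 9.13, 9.21 and 9.22 in knockout clones 1 to 3. All 3 knockout clones were below all 3 controls, at means of 9.75 ± 0.19 and 9.19 ± 0.05 (log2, SD, n = 3 each), a difference of -0.57 ± 0.13 (standard error), or 1.48-fold lower. HSPE1, the lid, measured 7.32, 6.91 and 7.36 in controls and 7.78, 8.30 and 7.77 in knockout clones. Here all 3 knockout clones were above all controls. The means were 7.20 ± 0.25 and 7.95 ± 0.30 (log2, SD, n = 3 each), a difference of 0.76 ± 0.18 (standard error), or 1.69-fold higher. Knockout clone 2 stood highest for HSPE1, and control 2 stood highest for HSPD1 and lowest for HSPE1.

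Within each clone the HSPE1 level was also set against its HSPD1 level, relative to the mean of the controls. This relative level was 0.19, -0.50 and 0.31 in controls 1 to 3 and 1.21, 1.65 and 1.11 in knockout clones 1 to 3. The lid gene thus stood higher relative to the barrel gene in every knockout clone than in any control. The difference between the groups was 1.32 on the log2 scale, a 2.50-fold shift of the ratio, which is not a measure of how many transcripts of each gene are present. Control clones covered a range of 0.82 and knockout clones 0.53. In the deposited log2 table the difference between the groups was 1.08.

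**Figure D1:**
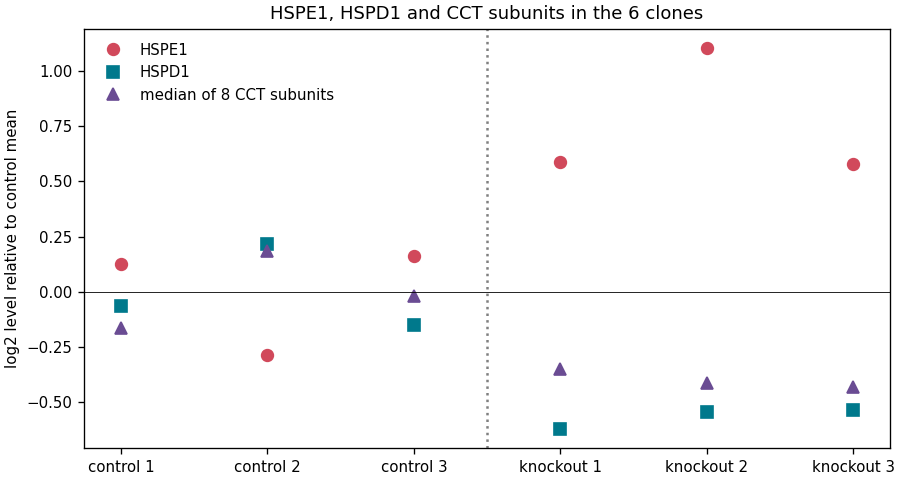
Level of HSPE1 (circles), HSPD1 (squares) and the median of the 8 CCT subunits (triangles) in each of the 6 clones, in log2 units with the control mean at 0. In knockout clones HSPE1 lies above 0 and HSPD1 and the CCT median lie below it, and in control 2 the order is turned.

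The deposited intensities behind these values were 835, 997 and 746 for HSPD1 in controls and 686, 699 and 699 in knockout clones. For HSPE1 they were 216, 199 and 218 in controls and 294, 395 and 287 in knockout clones. Neither gene's groups overlapped before normalization. The HSPE1 row rested on 12 to 15 beads an array and its beads had a standard error of 5.20% to 14.6% of the mean, the highest reached by any of the 10 genes, while that of HSPD1 was 6.17% to 7.64% on 18.5 to 22 beads. Both rows average several probes, at least 2 for HSPE1 and at least 4 for HSPD1 from the fractions in their bead numbers. HSPD1 had detection p-values of 0.00028 to 0.00433, the highest of the 10 genes although its row is among the brighter ones.

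Of the CCT subunits, CCT2 and CCT8 had the differences farthest from 0 and the widest spread between controls, and their promoter windows are shown for that reason. The RefSeq windows (GRCh38.p14) are at chr12:69585209-69585508 on the plus strand for CCT2 and chr21:29073599-29073898 on the minus strand for CCT8, with capitals as above.
CCT2: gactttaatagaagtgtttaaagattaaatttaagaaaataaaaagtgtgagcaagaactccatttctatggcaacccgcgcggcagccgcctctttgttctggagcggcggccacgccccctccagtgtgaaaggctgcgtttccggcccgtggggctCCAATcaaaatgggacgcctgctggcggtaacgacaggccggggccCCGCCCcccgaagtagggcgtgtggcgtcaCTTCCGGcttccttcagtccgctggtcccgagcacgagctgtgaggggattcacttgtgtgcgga
CCT8: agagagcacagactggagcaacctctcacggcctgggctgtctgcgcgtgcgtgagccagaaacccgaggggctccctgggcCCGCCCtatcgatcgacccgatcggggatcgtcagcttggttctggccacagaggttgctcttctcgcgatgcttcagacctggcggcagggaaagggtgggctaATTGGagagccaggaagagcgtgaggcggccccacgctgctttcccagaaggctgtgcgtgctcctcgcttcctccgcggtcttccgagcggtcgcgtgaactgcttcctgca

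Both windows hold a CCAAT box and an SP1 GC box, in 34.6% and 45.0% of all windows, and CCT2 also an ETS motif (10.3%). The table held 12 windows for 9 of the 10 genes, 8 of them at a gene start, and none for CCT6A. Of the 12 windows the SP1 GC box stood in 9 and the CCAAT box in 4. Windows can overlap: the SP1 GC box of HSPE1 and that of HSPD1 at its gene start are the same bases. The E-box stood in 2, the HSPD1 and HSPE1 windows at their gene starts. GAANNTTC stood in 3 of the 12 (6.77% of all windows), of which that of TCP1 is at the gene start and those of CCT2 and HSPD1 are at other starts. TTCNNGAA stood in 2 of the 12 (7.74%), in CCT4 and HSPD1, both at other starts. The other CCT4 start, chr2:61888656, is close to the gene start at 61888671, whose window ends just before the match. GCGCATG, a part of the NRF1 motif, stood in the window of the other CCT2 start alone (4.43%), and the TATA box (TATAAA, 11.5%) and the CRE (TGACGTCA, 1.85%) in 0.

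CCT2, the beta subunit, measured 9.92, 10.63 and 10.24 in controls 1 to 3 and 9.53, 9.50 and 9.49 in knockout clones 1 to 3. The knockout clones lay close together below every control, at 9.51 ± 0.02 against 10.26 ± 0.35 (log2, SD, n = 3 each). The difference was -0.75 with a standard error of 0.17, or 1.69-fold lower, and 0.441% of tested genes had a lower difference. CCT8, the theta subunit, which binds ATP weakly in yeast, measured 11.09, 12.05 and 11.38 in controls and 10.91, 10.84 and 10.75 in knockout clones. Its groups did not overlap, but control 1 lay only 0.19 above knockout clone 1, within the range of 0.95 that the controls themselves covered. Its means were 11.50 ± 0.49 and 10.83 ± 0.08, a difference of -0.67 ± 0.22 (standard error).

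CCT4, the delta subunit, is among those that bind ATP strongly in yeast. It measured 6.28, 6.45 and 6.38 in controls and 6.20, 5.55 and 5.73 in knockout clones. The knockout clones were all lower, and here it was they that spread, over 0.65 against 0.17 in controls. The means were 6.37 ± 0.08 and 5.83 ± 0.33 (n = 3 each), a difference of -0.54 ± 0.17 (standard error). It depends on the background: it was -0.07 with the background fitted on all rows and -0.27 with no background correction and in the deposited log2 table. CCT3, the gamma subunit, measured 9.10, 9.49 and 9.42 in controls and 8.85, 8.97 and 8.90 in knockout clones. No values crossed, and the difference was -0.43 with a standard error of 0.13.

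CCT7, the eta subunit, measured 10.02, 10.04 and 9.91 in controls and 9.63, 9.69 and 9.62 in knockout clones. Both groups were tight and apart, at 9.99 ± 0.07 and 9.65 ± 0.04 (n = 3 each), and the difference was -0.34 with a standard error of 0.11. TCP1, the alpha subunit and namesake of the family, measured 7.45, 7.58 and 7.44 in controls and 7.39, 7.02 and 7.17 in knockout clones. Knockout clone 1 was just under the lowest control, and the difference was -0.30 with a standard error of 0.13.

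CCT6A, the zeta subunit, has a testis-expressed relative, CCT6B. It measured 7.64, 8.19 and 7.74 in controls and 7.65, 7.53 and 7.40 in knockout clones, so that knockout clone 1 stood above control 1. The difference was -0.33 with a standard error of 0.16. CCT5, the epsilon subunit, is known from inherited sensory neuropathy. It measured 5.69, 6.03 and 5.69 in controls and 5.59, 5.73 and 5.77 in knockout clones. Knockout clones 2 and 3 lay above controls 1 and 3, and the difference was -0.11 with a standard error of 0.13, within the spread between clones.

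**Figure D2:**
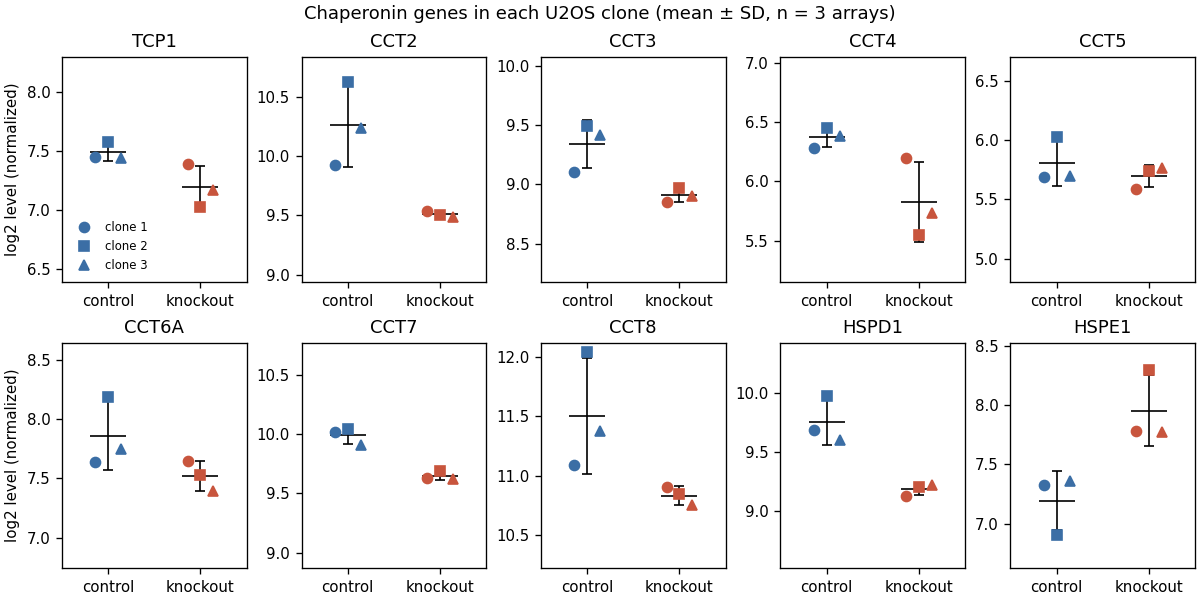
Normalized log2 level of each of the 10 chaperonin genes in the 3 control clones (blue) and the 3 MBTD1 knockout clones (red), with the marker shape giving the clone number and bars the mean ± SD. Every panel spans the same height, so that spreads can be compared: CCT8 covers 0.95 among controls and CCT7 covers 0.13.

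As a group the 8 CCT subunits were lower on average in knockout clones in 8 of 8, where 53.8% of tested genes lay below 0 and 46.2% above. Their differences ran from -0.75 to -0.11 with a median of -0.39, against a median of -0.02 over all tested genes. On the quantile-normalized scale all knockout clones lay below all controls in 6 of the 8, as for 13.7% of tested genes. The subunits were chosen from this contrast, so nothing is read from that count. Control 2 had the highest level of all 6 clones for 8 of 8 subunits, as it had for 26.2% of tested genes, and was the highest control for 39.5% of tested genes. The subunits were chosen with their lower knockout levels known, which favours a control as the highest clone. The 26.2% is therefore no like comparison. Over the 8 subunits control 2 exceeded control 1 by a median of 0.36 and control 3 by 0.23, against 0.02 and 0.00 over all tested genes. Leaving control 2 out, the CCT median was -0.33, 7 of 8 subunits were lower, and CCT5 measured 0.00 higher in knockout clones.

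**Figure D3:**
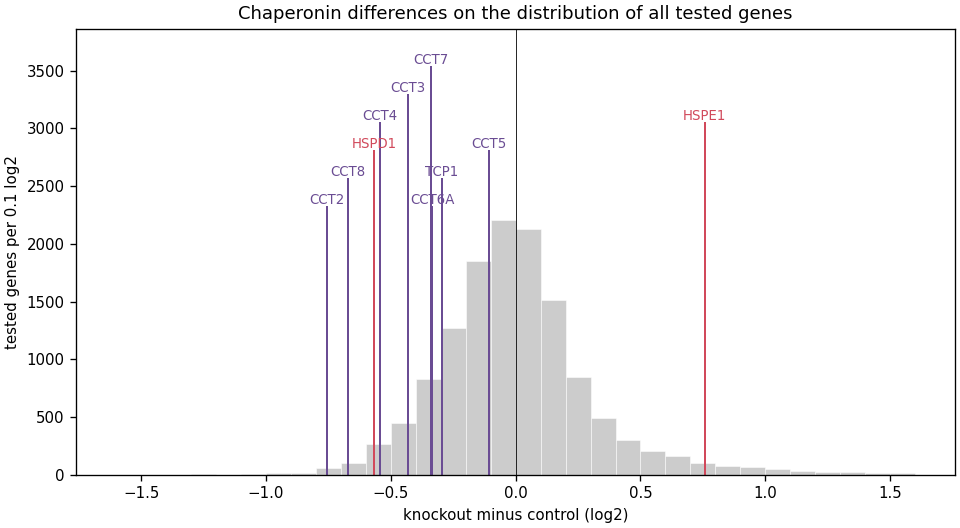
Distribution of the knockout-minus-control difference (log2, x axis) over tested genes, as the number of genes per 0.1 (bars, y axis), with the 8 CCT subunits (purple lines) and HSPD1 and HSPE1 (red lines) marked at their differences. The heights of the lines serve only to keep the names apart. CCT2 lies at -0.75, HSPD1 at -0.57 and HSPE1 at 0.76.

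The scale on which the arrays are set side by side bears on these values. In the deposited intensities, before any normalization, the groups did not overlap for 3 of the 10 genes, CCT2, HSPD1 and HSPE1, against 24.5% of all tested genes. With arrays brought only to a common median, they did not overlap for 4 of 10, those 3 and CCT4, against 22.7%. The 99th percentile of intensity was 1756, 1627 and 1614 in controls and 2316, 2099 and 2122 in knockout clones, and quantile normalization, which gives every array the same distribution, removes that difference. CCT8, the brightest of the 10 rows, overlapped before it: its intensities were 2108, 3454 and 2257 in controls and 2384, 2099 and 1999 in knockout clones. With a common median the CCT8 difference was -0.25, CCT7 measured -0.11, HSPD1 -0.33 and HSPE1 0.81, CCT2 and CCT3 were -0.49 and -0.25, and the CCT median was -0.25. With the background fitted on all rows, HSPE1 measured 0.37, HSPD1 -0.93, CCT3 -0.71 and CCT7 -0.51. CCT6A then measured -0.19, TCP1 -0.10, CCT4 -0.07 and CCT5 -0.01. All of these moved by over 1.5 times.

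Gene length also moved with the groups. HSPE1 spans 3071 bases in the RefSeq gene table (GRCh38.p14) and the other 9 genes 11105 or more. A short-gene score, the mean log2 level of tested genes spanning under 5 kb less that of longer ones with the 10 chaperonin genes left out, was 0.01, -0.26 and -0.09 in controls 1 to 3 and 0.12, 0.11 and 0.11 in knockout clones. Over the tested genes with a known span, again without the 10 chaperonin genes, the median difference was 0.08 for 1917 short genes and -0.05 for 9258 longer ones. All 3 knockout clones scored above all controls, and within groups the score varied mainly among the controls. It also comes from these same arrays, so a fit with it cannot fully separate score from group. With this score as a covariate, a setting added after seeing the data, the difference of HSPE1 minus HSPD1 was 0.72 and the CCT median -0.17. CCT5, CCT6A and CCT8 then measured 0.19, 0.11 and 0.10 higher in knockout clones, and 0 of 13145 genes passed limma's adjusted p, with 577 at an unadjusted p under 0.05.

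**Figure D4:**
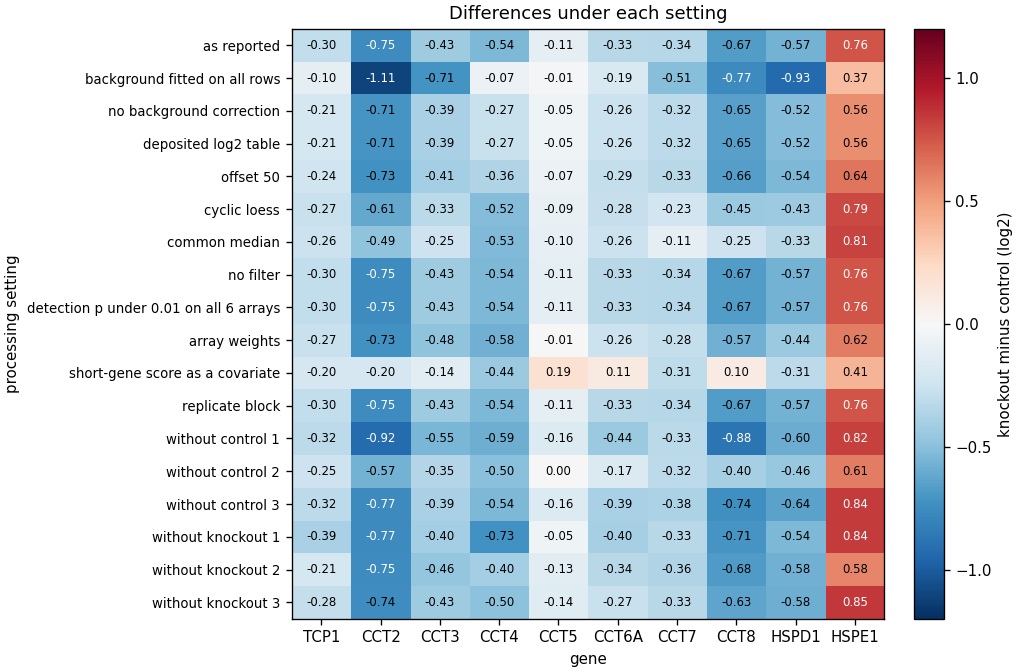
Knockout-minus-control difference (log2, printed and as colour from blue below 0 to red above 0) of each of the 10 chaperonin genes (columns) under each of the 18 processing settings (rows). HSPE1 is above 0 and HSPD1 below 0 in all 18, while CCT5 turns above 0 in 2 and CCT6A and CCT8 in 1 each.

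How near the CCT subunits lay to each other over the clones was also measured. Each subunit's levels, centred on its own mean, were compared with the mean of the other 7 by the root mean square distance over the 6 clones, which grows with the range of a gene and has no threshold. CCT6A and CCT3 lay nearest, at 0.0969 and 0.108, with 1.45% and 2.20% of tested genes nearer to that mean. CCT8 and CCT5 lay farthest, at 0.232 and 0.219, with 37.3% and 21.1% of tested genes nearer. The distance takes in the difference between the groups, from which these genes were chosen. Nearness among the subunits is therefore partly built in, and nothing is read from these shares.

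By the same distance, the named genes nearest to the mean of the 8 CCT subunits were FASTKD2, a mitochondrial RNA-binding protein, at 0.0374, LAPTM4B, a lysosomal membrane protein, at 0.0420 and ARL2BP, a partner of the GTPase ARL2, at 0.0422. Nearest to HSPD1 were RABGGTB, a subunit of the enzyme that prenylates Rab GTPases, at 0.0433, MRPL37, a mitochondrial ribosomal protein, at 0.0507 and WDR12, a ribosome biogenesis factor, at 0.0578. Nearest to HSPE1 were SEPW1, a small selenoprotein, at 0.0768 and the provisional genes LOC729776 at 0.0871 and LOC646407 at 0.1. Rows without a gene symbol were left out after an unnamed row had been seen to rank high for HSPE1. These are descriptions over 6 clones.

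The array also carries rows described as chaperonin copies or relatives that are not among the 10 genes. Of 11 such rows 4 were tested and 0 passed limma's adjusted p: CCT6P1, a copy of CCT6A, had a difference of -0.43, LOC643300 -0.32, LOC644131 -0.27 and LOC441241 -0.11. All 4 lay below 0, where 53.8% of tested genes did. CCT6B measured 4.14 to 4.45 in all clones and was above background on 0 of 6 arrays, as were CCT8L1 and CCT8L2. Probes for a gene and for its near-identical copies can bind the same transcript, so the CCT6A, CCT8 and HSPD1 levels are uncertain to that extent.

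The partner genes were read next. Prefoldin hands clients to CCT, and of 9 tested prefoldin and prefoldin-like genes 0 passed limma's test, 3 having an unadjusted p under 0.05 in each direction (10.3% of all tested genes lower and 10.1% higher), with a median difference of -0.13. UXT, a prefoldin-like subunit, measured 8.97, 7.96 and 8.55 in controls and 9.45, 9.60 and 9.60 in knockout clones, a difference of 1.06 that missed the threshold (limma adjusted p = 0.0565). Its levels were higher in all 3 knockout clones. C19orf2 (URI1), which binds UXT, measured -0.54 (limma adjusted p = 0.0769). Of 3 tested phosducin-like genes, which assist CCT, 0 passed, with TXNDC9 at -0.60 (limma adjusted p = 0.0608) and PDCL3 at -0.19. The chaperonin-like Bardet-Biedl genes BBS12 and BBS10 had differences of 0.24 and -0.08, and 0 of 2 passed. MKKS, in the same list of chaperonin relatives, had levels of 6.84 to 7.11 but did not meet the detection filter and was not tested.

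Of 18 tested CCT clients 0 passed, 8 had an unadjusted limma p under 0.05, all lower (10.3% of all tested genes had such a p and were lower), and the median was -0.36, against -0.02 for all tested genes. CDC20, a WD40 activator of the anaphase-promoting complex, measured 11.89, 12.22 and 12.02 in controls and 11.25, 11.10 and 11.65 in knockout clones, a difference of -0.71 (limma adjusted p = 0.0633). Its knockout clones were all lower. TUBA1C, an alpha tubulin, measured 12.46, 12.85 and 12.53 in controls and 11.93, 11.90 and 12.18 in knockout clones, and ACTB, beta actin, had a difference of -0.39. Control 2 was again the highest clone for all 3 of these. All 3 are bright rows, as is CCT8, whose difference was -0.67 as processed here and -0.25 with a common median. The client genes were not recomputed on another scale, so the part of the normalization in their median of -0.36 was not tested. Of 6 tested tubulin cofactors, which take tubulin after CCT, 0 passed, with TBCE at -0.52 and TBCB at 0.42 and a median of 0.10.

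In the mitochondrial HSP70 system and proteases, 1 of 17 tested genes passed. AFG3L2, a subunit of the inner membrane m-AAA protease, fell from 8.32, 8.48 and 8.51 in controls to 7.53, 7.83 and 7.72 in knockout clones. The fall, 0.74 on the log2 scale or 1.67-fold, was in all 3 knockout clones (limma adjusted p = 0.0296, standard error 0.12). The difference was -0.81 to -0.55 in 18 settings and passed in 10 of them, not without control 2 (limma adjusted p = 0.0931), control 3 (0.173), knockout clone 2 (0.0562) or knockout clone 3 (0.0954). It also missed the threshold with the replicate number as a block (limma adjusted p = 0.0513), the background fitted on all rows (0.0854), no filter (0.0769) and the short-gene score (0.989). The other 16 did not pass, among them YME1L1, an inner membrane protease, at -0.57 (limma adjusted p = 0.0854). Of the 17, 5 had an unadjusted limma p under 0.05, all lower (10.3% of all tested genes), and the median was -0.18. Of 4 mitochondrial stress factors 0 passed, with ATF5 at -0.65 (limma adjusted p = 0.0589) and ATF4 at -0.47. An unadjusted limma p under 0.05 was found for 3 of the 4, all lower.

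Of 17 tested genes of the cytosolic HSP70 and HSP90 system 0 passed, 9 had an unadjusted limma p under 0.05 and were lower (10.3% of all tested genes), and 15 of 17 lay below 0 (53.8% of all tested genes) with a median of -0.43. FKBP4, an HSP90 co-chaperone, had a difference of -0.54 (limma adjusted p = 0.0560). HSPA8, the constitutive HSP70, measured 11.47, 11.92 and 11.50 in controls and 11.05, 10.96 and 10.86 in knockout clones, a difference of -0.68 (limma adjusted p = 0.0585). Control 2 was the highest for HSPA8 as for the CCT subunits, and over this list exceeded control 1 by a median of 0.35. HSPA8 too is a bright row, and this list was computed on the quantile-normalized scale alone. The part of that scale in its median was not tested. Of 11 heat shock factors and inducible targets 0 passed, with CRYAB, a small heat shock protein, at -1.44 (limma adjusted p = 0.0522), HSPB8, another, at -0.81 and a median of -0.05.

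Among 11 tested ER chaperones 1 passed. CALR, the lectin chaperone calreticulin, rose from 8.10, 7.91 and 7.98 in controls to 8.68, 8.75 and 8.79 in knockout clones. The rise of 0.74, or 1.67-fold, was in all 3 knockout clones (limma adjusted p = 0.0213, standard error 0.11), while the median of the list was -0.10. The difference was 0.60 to 0.85 in 18 settings and passed in 10 of them, not without control 2 (limma adjusted p = 0.0653), control 3 (0.139), knockout clone 2 (0.0595) or knockout clone 3 (0.0831). With the block the limma adjusted p was 0.0579, with the background fitted on all rows 0.0767, without a filter 0.0615 and with the short-gene score 0.989. DNAJB9, an ER co-chaperone, measured -0.35. Of the 4 tested neighbours of HSPD1 and HSPE1 on chromosome 2, 0 passed: MOBKL3 (now MOB4), which shares a readthrough transcript with HSPE1 in RefSeq, had a difference of -0.44, opposite in sign to HSPE1, and SF3B1, a splicing factor, -0.41. The median of the 4 was -0.35.

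**Figure D5:**
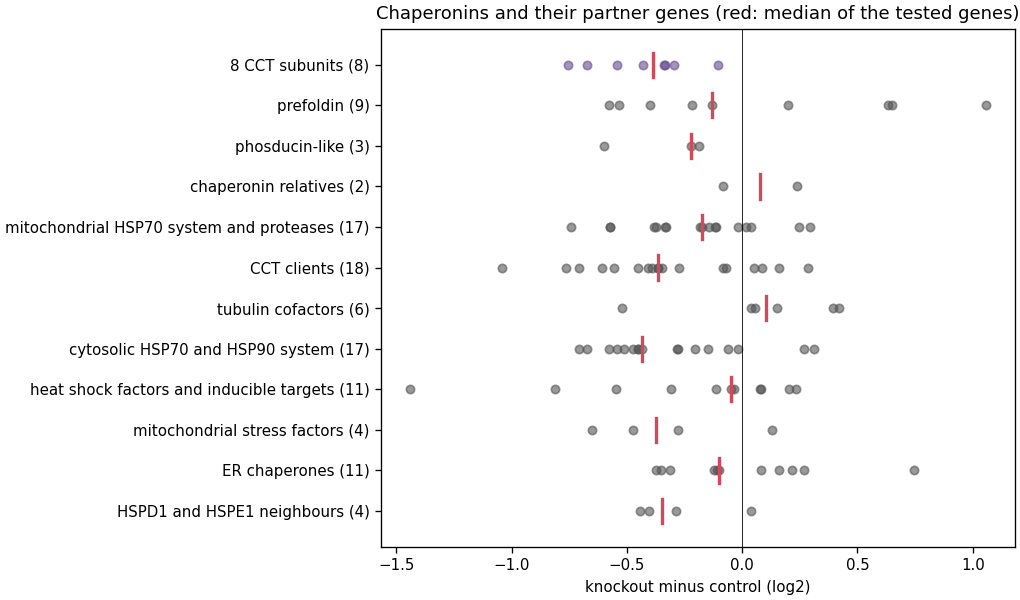
Knockout-minus-control difference (log2, x axis) of each tested gene (points) in the 8 CCT subunits and in 11 lists of partner genes, with the number of tested genes in brackets and the list's median as a red bar. The CCT subunits, their clients and the cytosolic HSP70 and HSP90 system have medians of -0.39, -0.36 and -0.43, and AFG3L2 and CALR are the 2 genes in these lists that passed the test.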

How the data were processed

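Total RNA of 6 U2OS cultures was measured on 6 bead arrays, 3 control and 3 MBTD1 knockout. The authors deposited mean bead intensity per gene on a linear scale, not normalized, with detection p-values, bead standard errors and bead numbers (34694 rows, 92 of them spike-ins), and, separately, log2 values that equalled quantile-normalized log2 intensities to within 0.000357. The submitters' processing notes name lumi and limma without versions or roles. Fractional bead numbers show that probes of some genes were averaged beforehand. The bead numbers and standard errors, deposited by the authors, were entered as scores and used only to describe precision.

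Intensities were background-corrected with limma 3.58.1 in R 4.3.3 (data.table, version 1.17.8) by normexp, with an offset of 16, and quantile normalized. The background was fitted on 27408 rows, those with detection p-values in whole steps of 1/770 throughout (tolerance 0.001 of a step). This restriction was adopted after the fit on all rows had called 0 genes. It gave a background SD of 3.08 to 3.77, against 114 to 164. Genes with a detection p under 0.05 on at least 3 arrays were tested (21457 were not) with lmFit and eBayes, 2-sided, without covariates, at a Benjamini-Hochberg adjusted p under 0.05. An exact permutation test was used for MBTD1. The number of arrays limits the precision.

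The 10 genes and all lists were chosen with earlier results of these data known. The genes named are these 10, MBTD1, in each list those past the threshold or, with fewer than 2, the 2 of lowest unadjusted p, the 2 brightest actin and tubulin rows, the 3 nearest profiles, and other chaperonin rows. Promoter windows and gene spans come from RefSeq (GRCh38.p14); no build is given for the arrays. Other normalizations, filters, covariates and left-out clones were tried.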

Additional observations from a re-analysis of the deposited data

How the results depend on the processing

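Gene counts and the differences of the 10 genes, AFG3L2 and CALR were recomputed under 17 alternatives. Of these, 16 were planned and 1, the short-gene score, was added after seeing the data. That score cannot be fully separated from the group in this design. The background fit as reported was itself adopted after the fit on all rows, counted here as planned, had called 0 genes. The other partner genes were not recomputed. The planned short-protein score was not run because no protein table was used here. HSPE1 was above 0 and HSPD1 below 0 in all 18 settings, at 0.37 to 0.85 and -0.93 to -0.31. The CCT median was below 0 in all 18, and the difference of HSPE1 minus HSPD1 above 0.

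The number of genes passing limma's adjusted p, 207 as reported, was 0 with the background fitted on all rows (2260 at an unadjusted p under 0.05), 64 with no background correction and also in the deposited log2 table, and 61 with an offset of 50. It was 585 with a common median (553 higher, 32 lower), 4 without a filter, 361 with a detection p under 0.01 on all arrays, 1392 with array weights (811 higher, 581 lower) and 0 with the short-gene score. Leaving out single clones it ranged from 0 without control 3 to 577 without control 1, and was 50 without control 2, 50 without knockout 2, 51 without knockout 3 and 225 without knockout 1. The cause was not tested.

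Chaperonin genes passing, 0 as reported, were 1 with a common median (HSPE1), where 585 of all 13145 tested genes passed. With the stricter detection filter 1 passed (CCT2), beside 361 of all 8244 tested. With array weights 5 passed (CCT2, CCT3, CCT4, HSPD1 and HSPE1), beside 1392 of all 13145. Leaving out single clones gave 0 to 1, CCT2 without control 1 (577 of all 13145) and CCT4 without knockout 1 (225 of all 13145). The chaperonin genes were chosen from this contrast, so the counts support nothing. The CCT median, -0.39 as reported, was -0.25 with a common median and -0.17 with the short-gene score, and -0.50 to -0.33 without single clones. HSPE1 minus HSPD1 was 1.32 as reported, which no setting with all 6 arrays exceeded. It was 1.08 with no background correction and in the deposited log2 table, 1.14 with a common median and 1.18 with an offset of 50. With the short-gene score it was 0.72, and without single clones 1.07 to 1.48. With the short-gene score CCT5, CCT6A and CCT8 turned to 0.19, 0.11 and 0.10, and CCT5 ranged from -0.16 to 0.0045 without single clones, the latter without control 2. The cause was not tested.

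Control and knockout clones share only numbers: same-numbered clones' deviations correlated at 0.07, 0.02 and 0.02, and control 3 correlated best with knockout 2. With the number as a replicate block 122 genes passed, 108 higher and 14 lower (in this balanced design a block cannot move a mean difference). With this block AFG3L2 and CALR missed the threshold at unchanged differences of -0.74 and 0.74 (adjusted p = 0.0513 and 0.0579). With the short-gene score they measured -0.62 and 0.60 (0.989 for both), with the background fitted on all rows -0.55 and 0.74 (0.0854 and 0.0767), and without a filter -0.74 and 0.74 (0.0769 and 0.0615). Among the 10 genes, the bead standard error was highest for HSPE1.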
